A study of Mus musculus with 2 samples.

Results

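The genes described here encode the initiation and elongation factors of cytosolic translation, and they were read for NRF1 occupancy at their promoters in mouse skeletal muscle. The rule that picks them uses gene symbols, and takes the protein-coding RefSeq genes whose symbols begin with Eif1 to Eif6, Eef1 or Eef2. Genes that encode eIF2 kinases (Eif2ak1 to Eif2ak4), the eIF2 alpha subunit (Eif2s1) and the eIF4E-binding proteins (Eif4ebp1 to Eif4ebp3) were left out by the same rule. The group was proposed with earlier results of these data known, so its share of peaks is a description. The rule gave 63 genes of 21000 protein-coding genes, 48 with an initiation factor symbol (Eif) and 15 with an elongation factor symbol (Eef). The symbols do not all name factors in the strict sense. Of the 63 genes, 54 carry the symbol of a factor or of a subunit, and the rest are enzymes that modify eEF1A or eEF2, the eIF4E transporter gene Eif4enif1 and the read-through gene Eef1akmt4-ece2.

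The study asked where the glucocorticoid receptor, the demethylase LSD1 and NRF1 meet on the genome of skeletal muscle. Chromatin immunoprecipitation followed by sequencing (ChIP-seq) with an NRF1 antibody was done on muscle of wild-type male C57Bl/6J mice 9 weeks old, with no treatment or number of animals given in the labels, which do not state age, sex or strain either. Both libraries of the series are labelled wild-type skeletal muscle with this antibody, but the study's reporting summary lists replicate 2 as the input, that is, DNA taken before the immunoprecipitation. A single peak list carrying the name of the library of replicate 1 was analysed, so no value below has a replicate error, and depth is unknown.

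Nuclear respiratory factor 1 (NRF1) binds DNA as a dimer at the palindrome GCGCATGCGC, an inverted repeat of the half-site TGCGC, in CpG-rich promoters, and it is best known for genes of the mitochondrial respiratory chain. In translation initiation, eIF2 brings the initiator tRNA to the small ribosomal subunit, eIF3 holds the complex together, the eIF4 proteins bind the cap of the mRNA and unwind its leader, and eIF1, eIF5 and eIF5B act at the start codon and in joining the subunits. In elongation, eEF1A delivers aminoacyl-tRNAs, the eEF1B subunits reload it with GTP, and eEF2 moves the ribosome along the mRNA. In muscle, the balance of protein synthesis and protein breakdown sets the mass of the tissue.

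A promoter peak is a peak whose summit lies between 1000 bp before and 100 bp after a transcription start. Of the 63 genes, 23 had a promoter peak, or 36.5%, with a Wilson 95% interval of 25.7 to 48.9%. Among all protein-coding genes the share was 13.4% (2808 of 21000). Because NRF1 sites are CpG-rich, the share was also taken among genes with a CpG-rich start, and there it was 37.9% of the translation factor genes (22 of 58) against 23.5% of all such genes (2582 of 10999). A start was called CpG-rich where the observed to expected ratio of CpG was at least 0.6 and the G + C content at least 55% within 200 bp. These shares were set side by side and their difference was not tested. Intervals cover counting error over genes only, and paralogous genes are not independent.

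The NRF1 palindrome was recognisable at most of these peaks, and the copies nearest the summits are printed here because they show which variants the translation factor promoters hold. Each line gives the mm10 sequence on the strand of the gene, 5′ to 3′, with the match in capitals and 10 bases on either side. The peaks of Eif3k (chr7:28981947-28981976, minus strand) and Eif5b (chr1:37996966-37996995, plus strand) were the only ones of the 23 with the palindrome intact. The other matches printed here differ from it at 1 position, counted from 1 at the 5′ end of the match, and the substitution named has the base of the palindrome first. Eif4e (T6G, chr3:138527158-138527187) and Eif3a (A5C, chr19:60790742-60790771, minus strand) carried the commonest variant, in which the centre of the palindrome is changed; T6G and A5C are the same variant read on opposite strands. The match of Eif3h (A5G, chr15:51865634-51865663, minus strand) is a different change of the centre, and those of Eef1a1 (C2A, chr9:78481876-78481905, minus strand), Eef2 (C2T, chr10:81176512-81176541) and Eif4h (C10T, chr5:134639417-134639446, minus strand) are changed in an outer part of a half-site.
Eif3k: tgagctcattGCGCATGCGCaagttacaac
Eif5b: actaactgggGCGCATGCGCcgtagcctcc
Eif4e: ctgcagtcttGCGCAGGCGCcgctagggcc
Eif3a: agacgccagcGCGCCTGCGCgcggagaaag
Eif3h: gccaaactccGCGCGTGCGCagaggattcc
Eef1a1: acagtgcgagGAGCATGCGCtcagggctga
Eef2: accgcgctctGTGCATGCGCagacccgtcc
Eif4h: gcggcggcgcGCGCATGCGTgcgtgcgact

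A match with at most 1 mismatch always keeps one half-site whole, so the variants differ in the other. The variant with GCGCAGGCGC, or GCGCCTGCGC on the other strand, lay at 7 of the members' peaks (Eef1d, Eef1e1, Eif2s2, Eif3a, Eif4e and Eif5a among them) and at 715 of all 3226 peaks, or 22.2%. GCGCACGCGC, or GCGCGTGCGC, lay at 3 (Eef1d, Eif2a and Eif3h) and at 513 of all peaks. A match with at most 1 mismatch, its centre within 100 bp of the summit, on either strand, was found at 17 of the 23 peaks, or 73.9% (Wilson 95% interval 53.5 to 87.5%), and at 66% of the 2607 promoter peaks of all genes. The intact palindrome lay at 8.7% of the members' peaks and at 10.9% of all promoter peaks. Where a match was present, its centre lay a median of 12.5 bp from the summit in members and in all promoter peaks. It was within 25 bp at 13 of the 17 members' peaks and at 1305 of 1721 among all promoter peaks with a match.

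To show where the motif stands in a whole promoter, 240 bases before the start are printed for 3 genes that have a single known start, with every match of at most 1 mismatch in capitals and no base in a known exon. These are the genes of eEF1A1 (chr9:78481725-78481964, minus strand), eEF2 (chr10:81176391-81176630, plus strand) and eIF1 (chr11:100319709-100319948, plus strand), chosen for the core steps of elongation and for one of the highest members' peaks. As a reference, the motif was present in 8.76% of 20488 RefSeq promoters that span 250 bp before to 50 bp after a start, and the intact palindrome in 1.38%. The table of those promoters held 49 of the 63 genes.
Eef1a1: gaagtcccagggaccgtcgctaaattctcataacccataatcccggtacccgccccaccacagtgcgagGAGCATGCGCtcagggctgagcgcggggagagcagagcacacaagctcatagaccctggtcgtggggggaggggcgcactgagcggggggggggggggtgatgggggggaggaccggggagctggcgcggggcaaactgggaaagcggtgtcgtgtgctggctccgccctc
Eef2: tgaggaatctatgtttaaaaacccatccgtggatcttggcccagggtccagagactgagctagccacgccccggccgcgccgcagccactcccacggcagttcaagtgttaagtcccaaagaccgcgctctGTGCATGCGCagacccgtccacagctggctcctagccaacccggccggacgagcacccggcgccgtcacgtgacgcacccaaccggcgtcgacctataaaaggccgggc
Eif1: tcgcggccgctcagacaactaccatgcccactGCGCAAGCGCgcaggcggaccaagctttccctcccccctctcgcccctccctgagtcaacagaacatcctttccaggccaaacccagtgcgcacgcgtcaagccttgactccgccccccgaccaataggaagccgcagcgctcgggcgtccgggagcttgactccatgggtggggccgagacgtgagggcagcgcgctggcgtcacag

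The heights of the peaks are given as fold enrichment, the summit signal divided by the control background, and as −log10 q, the strength of the call. Fold enrichment over the 23 peaks had a median of 12.8, quartiles at 8.70 and 19.1, and extremes of 6.56 and 31.7. Over all 2607 promoter peaks the median was 11.1 and the quartiles 7.90 and 16.4. Of the 23 peaks, 13 were above that median, 7 above the upper quartile and 5 in the highest 10%, while 5 were below the lower quartile. The median −log10 q was 33.9 in the members and 25.3 in all promoter peaks. Median fold enrichment was 13.7 for the 17 peaks that held the motif and 8.86 for the 6 that did not, and the corresponding medians over all promoter peaks were 12.9 and 8.58.

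**Figure D1:**
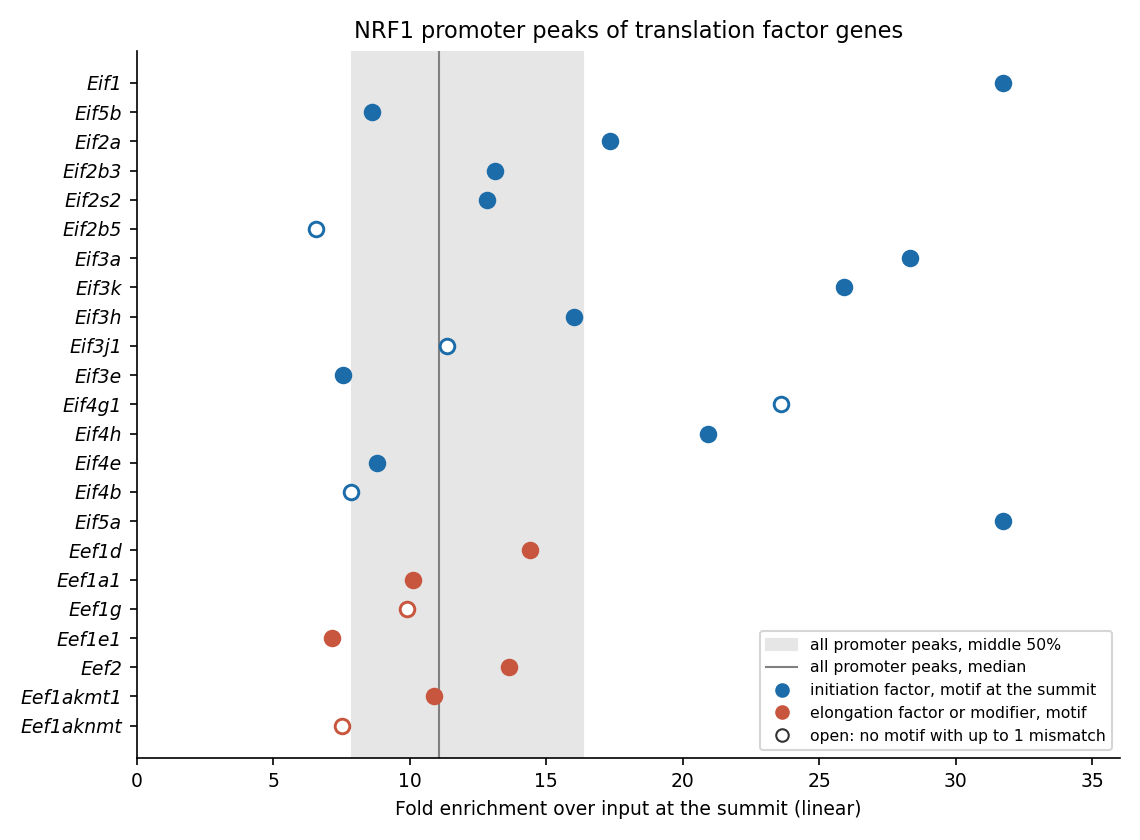
Fold enrichment over input (linear axis) of the promoter peak of each of the 23 genes, ordered by the role of the protein and then by height; filled points have the motif with at most 1 mismatch within 100 bp of the summit and open points do not. The grey band and line give the quartiles and the median of all 2607 promoter peaks, and Eif1, Eif5a, Eif3a, Eif3k, Eif4g1, Eif4h and Eif2a lie to the right of the band.

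Among the factors that select the start codon and join the subunits, Eif1 and Eif5b of 7 genes had a promoter peak. Eif1 encodes the factor that guards the fidelity of start codon choice, and its peak (chr11:100319579-100319951) was among the highest of the list, with a fold enrichment of 31.7, a −log10 q of 105 and rank 45 of 2607. The summit lay 121 bp before the start. In the promoter printed above, the match with 1 mismatch (T6A) was centred 82.5 bp from this summit, whereas a copy with 2 mismatches (T6C and C10T) was 5.5 bp from it.

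Eif5b encodes the GTPase that joins the ribosomal subunits. Its promoter peak (chr1:37996832-37997130) had a fold enrichment of 8.62 and a −log10 q of 13.2, and with the summit 978 bp before the start it was the farthest of the 23. That summit lay 176 bp after the start of Txndc9, the neighbouring gene, and the intact palindrome was centred 51.5 bp from it, 1029.5 bp before the Eif5b start. A second and higher peak (chr1:37997876-37998237, fold enrichment 13.4, −log10 q 22.4) had its summit 115 bp after the Eif5b start, in an untranslated exon, and held no match. By the same window this second peak is a promoter peak of Txndc9 and the first is not. Eif1a, Eif1ad, Eif1ax, Eif1b and Eif5 had no promoter peak.

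Initiator tRNA delivery was represented by 4 of 10 genes. The highest of these peaks was that of Eif2a, for a factor that can bring the initiator tRNA without eIF2, at a fold enrichment of 17.4 and a −log10 q of 55.5 (chr3:58525785-58526049). It was centred 79 bp after the start, with a match (A5G) 4.5 bp from the summit, and it is also a promoter peak of Serp1, a gene of an endoplasmic reticulum stress protein. Eif2s2, for the beta subunit of eIF2, had a fold enrichment of 12.8, a −log10 q of 44.3 and a summit 13 bp after the start. Eif2b3 and Eif2b5 encode the gamma and epsilon subunits of eIF2B, the exchange factor that recharges eIF2 with GTP. Eif2b3 had a fold enrichment of 13.1, a −log10 q of 26.8 and a summit 15 bp after the start. Eif2b5 had the lowest peak of all 23, at a fold enrichment of 6.56 and a −log10 q of 7.70, 9 bp after the start and with no match.

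The subunits of these complexes were not marked as a block. Of the 5 eIF2B genes, Eif2b1, Eif2b2 and Eif2b4 had no promoter peak. Of the eIF2 genes, the X- and Y-linked gamma subunit genes Eif2s3x and Eif2s3y had none, whereas Eif2s1, the alpha subunit gene that the rule leaves out, had a peak at a fold enrichment of 8.25 centred 56 bp before its start with 2 copies of the motif. Eif2d had no promoter peak.

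The eIF3 complex, the scaffold of the initiation complex, had a promoter peak at 5 of 14 genes. Eif3a, for its largest subunit, had a fold enrichment of 28.3 and a −log10 q of 82.6 (chr19:60790583-60790982), rank 87 of 2607, with the summit 14 bp before the start and the match printed above 49.5 bp from it. Eif3k, for a peripheral subunit, had a fold enrichment of 25.9 and a −log10 q of 96.2 (chr7:28981827-28982304), rank 130, with the summit 81 bp before the start and the intact palindrome 7.5 bp from it. The same peak lies in the promoter of the kinase gene Map4k1, and Eif3k was the only gene of the 23 whose start was not CpG-rich by the definition used.

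The remaining eIF3 peaks were lower. Eif3h had a fold enrichment of 16.0 and a −log10 q of 36.4, centred 200 bp before the start. Eif3j1, for a loosely attached subunit, had a fold enrichment of 11.4 and a −log10 q of 28.8, centred 175 bp before the start and with no match at 1 mismatch. Eif3e had a fold enrichment of 7.56 and a −log10 q of 16.6, centred 33 bp before the start with a match (G3A) 1.5 bp from the summit. No promoter peak was found at Eif3b, Eif3c, Eif3d, Eif3f, Eif3g, Eif3i, Eif3j2, Eif3l or Eif3m. Eif3d came closest, with a summit 125 bp after its start (chr15:77970613-77970906, fold enrichment 8.67, −log10 q 11.9) and no match.

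Cap binding and unwinding had 4 of 14 genes with a promoter peak. Eif4g1, the scaffold that joins the cap-binding protein to the helicase, had a fold enrichment of 23.6 and a −log10 q of 56.8 (chr16:20672628-20673209), rank 179, centred 27 bp after the start. It was the highest of the 6 peaks with no match, and its nearest copy with 2 mismatches (A5C and C10G) lay 9.5 bp from the summit. Eif4h, a stimulator of the eIF4A helicase, had a fold enrichment of 20.9 and a −log10 q of 66.6, centred 27 bp before the start, with its match 4.5 bp from the summit. Eif4e, the cap-binding protein, had a fold enrichment of 8.79 and a −log10 q of 30.4. Its summit lay 115 bp before the nearer of 2 known starts, and in an intron of another known transcript. Eif4b, the other stimulator of eIF4A, had a fold enrichment of 7.83 and a −log10 q of 12.3, centred 1 bp after the start, and neither 1 nor 2 mismatches gave a match within 100 bp. It also had an intronic peak 665 bp after the start (fold enrichment 7.03) with 1 match.

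None of the genes with an Eif4a symbol, Eif4a1, Eif4a2, Eif4a3 and Eif4a3l1, had a promoter peak. They were grouped by symbol, and not all of them need encode the helicase of initiation. These 4 genes are too few to set apart from the 13.4% of all protein-coding genes or the 23.5% of those with CpG-rich starts. Eif4e1b, Eif4e2, Eif4e3, Eif4g2, Eif4g3 and Eif4enif1 had none either. Eif4enif1 was the only gene without a promoter peak that held a match, with 1 mismatch, in its promoter. It has 4 known starts, and the match was centred 115.5 bp after the nearest of them and in the window before another.

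Eif5a encodes the hypusine-bearing factor that helps the ribosome through difficult peptide bonds. Its peak (chr11:69921013-69921880) had a fold enrichment of 31.7 and a −log10 q of 143, the highest −log10 q of the 23, and ranked 44 of 2607. The summit lay 219 bp before the nearest of 6 known starts, and in an intron of another known transcript. A copy with 2 mismatches (T6G and G7C) was 1.5 bp from the summit and the nearest match with 1 mismatch 94.5 bp. Eif5a2, its paralog, and Eif6, for a factor that keeps the large subunit apart, had no promoter peak.

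Of the 15 genes with an elongation factor symbol, 8 of them for modifying enzymes, 7 had a promoter peak (46.7%, Wilson 95% interval 24.8 to 69.9%). Of the 48 genes with an initiation factor symbol, 16 had one (33.3%, interval 21.7 to 47.5%). The intervals overlap and the difference was not tested. All 15 Eef starts are CpG-rich, and 23.5% of all genes with such a start had a peak. The eEF1 group had 4 of 6 (66.7%, Wilson 95% interval 30.0 to 90.3%). Eef1d, for a subunit of the eEF1B exchange factor, had the highest, with a fold enrichment of 14.4 and a −log10 q of 49.3 (chr15:75909178-75909739), centred 37 bp before the start. Within 100 bp of the summit it was the only one of the 23 with more than 1 match, at 1.5 and 37.5 bp. The peaks of Eif1, Eif3k and Eif5a held further matches beyond that distance. The Eef1d peak is shared with the promoter of Tigd5. Eef1a1, for the widely used form of eEF1A, had a fold enrichment of 10.1 and a −log10 q of 15.1, centred 150 bp before the start. Eef1g, for another eEF1B subunit, had a fold enrichment of 9.89 and a −log10 q of 31.0, centred 42 bp before the start, and its nearest copy had 2 mismatches (G1A and T6G) at 4.5 bp. Eef1e1, whose product belongs to the multi-synthetase complex, had a fold enrichment of 7.15 and a −log10 q of 10.3, centred 82 bp before the start. Eef1a2, the form of eEF1A that muscle and neurons use after birth, and Eef1b2 had no promoter peak.

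Eef2, for the translocase, had a fold enrichment of 13.7 and a −log10 q of 35.0 (chr10:81176315-81176622), centred 126 bp before the start. A further peak, at a fold enrichment of 15.1 and with 2 matches, lay 3323 bp before the same start and outside any promoter. Of 8 genes for enzymes that modify eEF1A or eEF2, 2 had a promoter peak. All 8 have a CpG-rich start, and this 25% is near the 23.5% of all such genes. Eef1akmt1, a lysine methyltransferase of eEF1A, had a fold enrichment of 10.9 and a −log10 q of 33.9, centred 31 bp after the start, with a match 1.5 bp from the summit, and shares its peak with 1700039M10Rik. Eef1aknmt, which methylates the end of eEF1A, had a fold enrichment of 7.51 and a −log10 q of 11.3, centred 277 bp before the start. Eef1akmt2, Eef1akmt3, Eef1akmt4, Eef1akmt4-ece2, Eef2k and Eef2kmt had none, and Eef1akmt4-ece2 shares its start with Eef1akmt4.

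**Figure D2:**
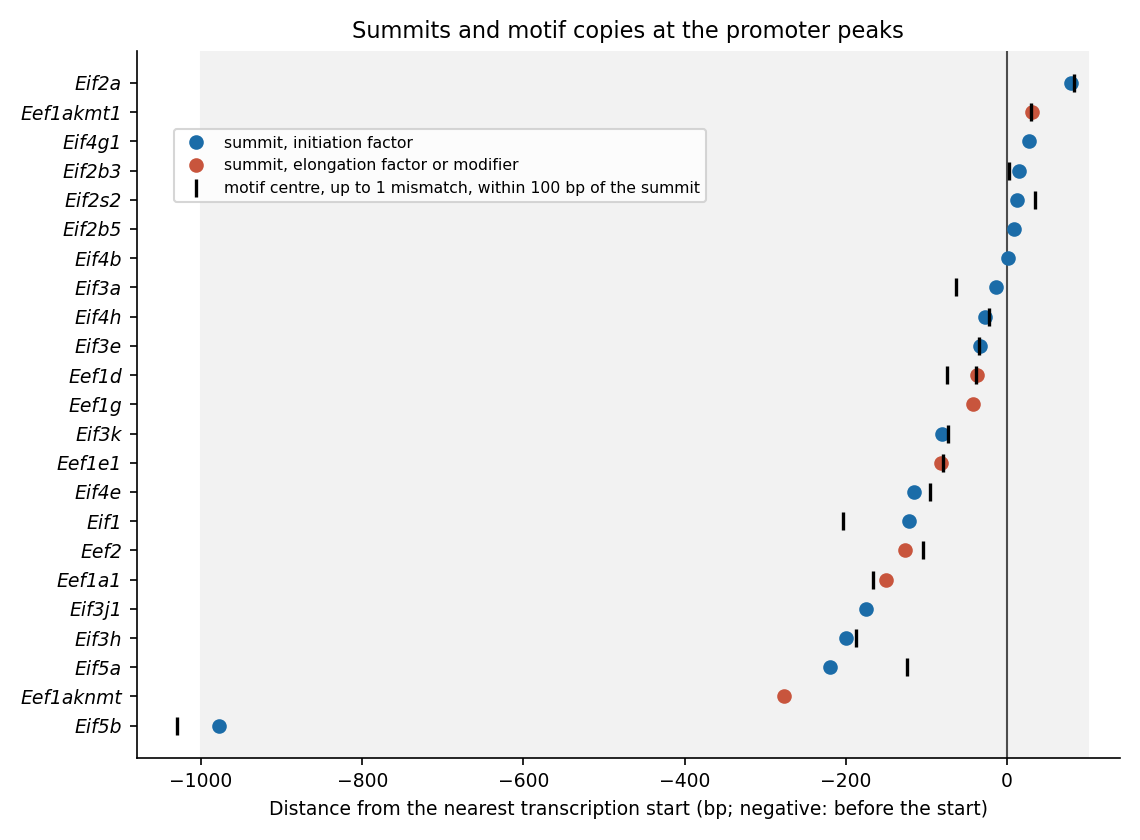
Distance in bp of each promoter summit (points) and of each motif centre within 100 bp of a summit (black ticks) from the nearest transcription start, with negative values before the start and the promoter window shaded. The summits sit between 978 bp before and 79 bp after the start, and 14 of the 23 are within 100 bp of it. Among all protein-coding genes with a promoter peak, 1887 of 2808 have the summit within 100 bp.

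The summits stood close to the starts. Their median position was 42 bp before the nearest start, with 16 before and 7 after it. The median over all 2808 genes with a promoter peak was 58 bp before. The members nearest the edges of the window from inside were Eif2a at 79 bp after the start and Eif5b at 978 bp before, and nearest from outside were the second Eif5b peak at 115 bp and Eif3d at 125 bp after the start. A window of 500 bp on either side adds Eif3d and loses no gene. Of the 23 peaks, 3 (those of Eef1d, Eif2a and Eif3k) are promoter peaks of another protein-coding gene too, or 13%, against 11.8% of all promoter peaks.

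In 6 groups of paralogs, picked because they show it, a peak stood at one member alone: Eef1a1 and not Eef1a2, Eif5a and not Eif5a2, Eif1 and not Eif1b, Eif3j1 and not Eif3j2, Eif4g1 and not Eif4g2 or Eif4g3, and Eif4e and not Eif4e1b, Eif4e2 or Eif4e3. In other groups no gene had one, as in the 4 genes with an Eif4a symbol, in Eif2s3x and Eif2s3y, and in Eif1a and Eif1ax. A peak was present at 36.5% of the 63 genes and at 13.4% of all protein-coding genes. Groups this small and picked for the pattern cannot be set apart from those shares, and no test was made. Reads that map equally to close copies were not kept by the authors, and the part of this in the missing peaks was not tested.

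The 40 genes without a promoter peak were mostly far from any peak. Apart from Eif3d, the nearest summit lay between 9202 bp (Eif2b4) and 1820799 bp (Eif5a2) from a start, with a median of 86186 bp, and for 17 of these 39 genes it was beyond 100 kb. Eif4a1, Eif2d, Eif3i and Eif3g followed Eif2b4 at 9622, 14895, 18461 and 20190 bp. A gene without a peak is one with no peak called at the depth of this library, which is unknown, and not one shown to be free of NRF1.

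Base composition at the starts was much alike in genes with and without a peak. The median CpG ratio within 200 bp of the start was 0.892 in the 23 genes with a peak and 0.867 in the 40 without, and the median G + C content was 66.8 and 63.1%. CpG-rich starts made up 22 of the 23 (95.7%) and 36 of the 40 (90%). Over all protein-coding genes the contrast was wider, with CpG-rich starts at 92% of genes with a peak and 46.3% of those without, and median CpG ratios of 0.898 and 0.601. Those not CpG-rich and without a peak were Eif2s3y, Eif4a3l1, Eif4e1b and Eif6. A match with at most 1 mismatch lay in the promoter of 17 of the 63 genes, or 27%, against 12.1% of all protein-coding genes. Of these 17 genes 16 had a peak (94.1%), and of the 46 without a match 7 had one (15.2%). Over all protein-coding genes the shares were 75.4% of 2548 genes with a match and 4.81% of 18452 without. These are counts set side by side with no test. Of the 6 members' peaks with no match near the summit, 5 had a copy with 2 mismatches. So did 73.8% of the 886 promoter peaks of all genes with no match, and such a loose copy is thus common among them. A copy with at most 2 mismatches, closer matches included, lay at 91.1% of all promoter peaks.

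**Figure D3:**
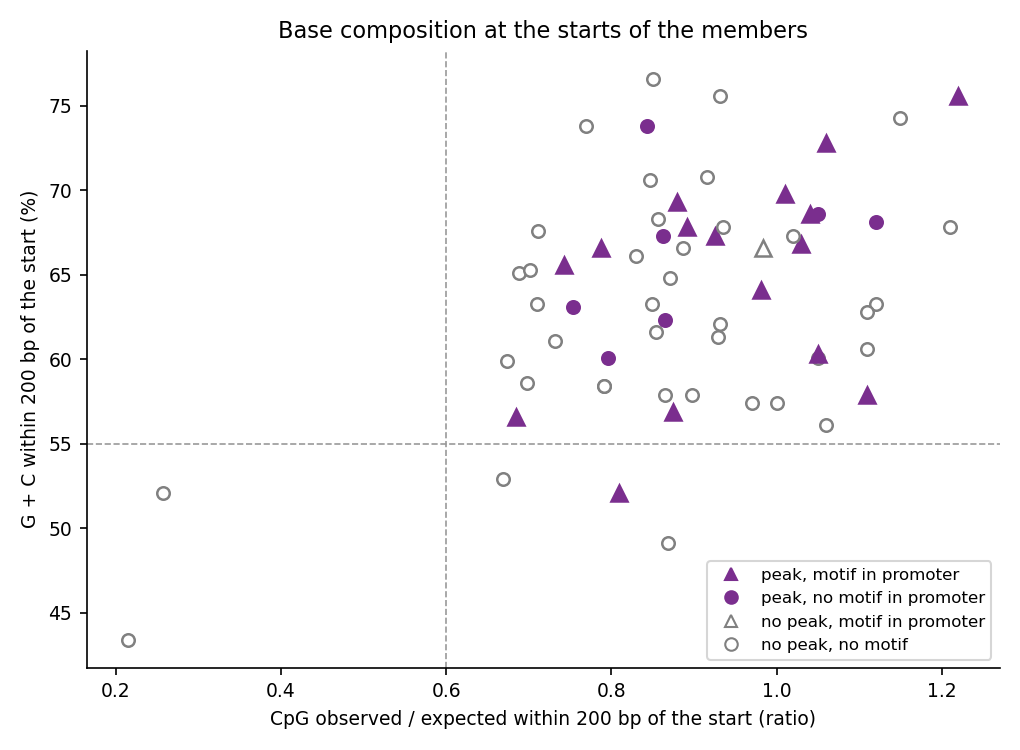
G + C content (%) against the observed to expected ratio of CpG within 200 bp of the start, one point for each of the 63 genes; filled points have a promoter peak and triangles hold the motif in the promoter. Filled and open points mix over the CpG-rich range, right of and above the dashed limits of 0.6 and 55%, while all triangles but that of Eif4enif1 are filled.

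Lists for other steps of translation were counted in the same way, and no difference between lists was tested. Termination, recycling and rescue factors had a promoter peak at 5 of 9 genes (55.6%): Etf1, the factor that reads stop codons, at a fold enrichment of 10.1; Abce1, which splits ribosomes after termination, at 8.26; Pelo and Hbs1l, which rescue stalled ribosomes, at 15.4 and 16.0; and Denr, which acts in recycling, at 5.25. Genes for cytosolic and mitochondrial aminoacyl-tRNA synthetases, counted as 1 list, had a peak at 12 of 34 (35.3%). Those 12 were Gars, Kars, Sars, Tars and the mitochondrial Iars2, Mars2, Nars2, Pars2, Rars2, Vars2, Wars2 and Yars2. Genes with cytosolic ribosomal protein symbols had a peak at 22 of 91 (24.2%). The share of all protein-coding genes was 13.4%. Among CpG-rich starts the shares were 38.7% of 31 synthetase genes and 25.7% of 70 ribosomal genes, the latter close to the 23.5% of all such genes. Mitochondrial translation factors, a list that leaves out the synthetases, had none in 10 genes, of which 9 have a CpG-rich start. The Wilson upper bound of 27.8% lies above both reference shares. Pabpc1, the main cytosolic poly(A)-binding protein, was the only one of 8 genes of that list with a peak, at a fold enrichment of 18.6. This 12.5% is near the 13.4% of all protein-coding genes.

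The enzymes that make the special residues of eIF5A and eEF2 had a peak at 2 of 9 genes. These were Dohh, which completes the hypusine of eIF5A, at a fold enrichment of 8.53, and Dph3, which acts in making the diphthamide of eEF2, at 20.5. The 3 selenocysteine elongation genes and the 2 further helicases had no promoter peak, and are too few to set apart from those shares. Of the 8 genes that the rule leaves out, Eif2s1 was the only one with a promoter peak, and this 12.5% is near the share of all protein-coding genes.

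**Figure D4:**
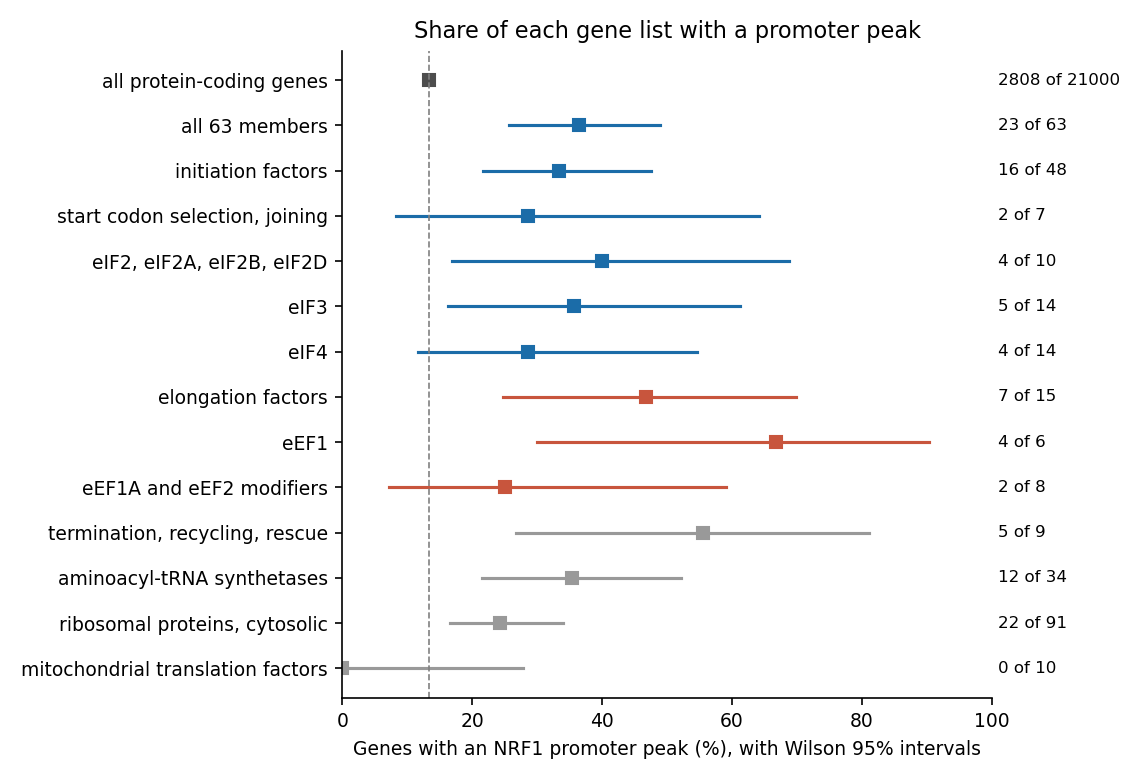
Share of each gene list with an NRF1 promoter peak (%), with Wilson 95% intervals over genes and the counts at the right; the dashed line is the share of all protein-coding genes, 13.4%. The interval of all 63 genes, 25.7 to 48.9%, lies above the line, whereas those of the small groups are wide and several reach it.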

How the data were processed

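The members, gene lists and comparisons were chosen with earlier results of these data known. According to the study's methods, the authors mapped reads to mm10 with Bowtie, kept uniquely mapped reads and called peaks with MACS2 against input. Whether libraries were pooled is not given in the sources used here. The deposited list holds 3226 narrow peaks with a fold enrichment (a ratio of signal to control at the summit), and the authors gave p-values and q-values on the −log10 scale, with the summit as a distance from the peak start. Unique mapping lowers signal at near-identical copies, and an unknown depth limits which weak sites were called. The methods name a human blacklist and a broad-peak option, whereas the list has the narrow layout. The study states another total of NRF1 sites, and whether it counted this same list is unknown.

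Starts were those of 45756 known RefSeq transcripts (31603 different starts) of GRCm38, coding and non-coding transcripts of protein-coding genes included. A summit 1000 bp before to 100 bp after any start made a promoter peak. Matches to the palindrome were sought on both strands with at most 1 mismatch, and counted by their centre. Roles followed gene symbols. Every member was named, with values for those with a peak. With 1 list there was no test; shares carry Wilson 95% intervals (scipy 1.17.1, Python 3.11.15). The motif search and peak assignment were tested on simulated data. Alternatives covered the window, thresholds, transcripts, members and motif settings. Sequences are printed for a choice of members, and some are not reported here. Age, sex and strain of the mice come from the text of the study.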

Additional observations from a re-analysis of the deposited data

How the results depend on the processing

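Of 65 alternative values of 8 results, 57 stayed within the limits set and 8 moved, where a share had to stay in its Wilson interval (narrow for all genes), a count within 1.5 times and a median within 1 SD over the peaks. The members with a promoter peak numbered between 21 and 24 and their share lay between 33.8 and 38.9%. The share of all protein-coding genes was 14.1% with a window of 500 bp on either side, 14.7% with 2000 bp before to 500 bp after, 14.2% with any overlap of at least 1 bp, 12.8% with a q-value of at most 1e-05, 12.8% with a fold enrichment of at least 5, 13.9% with predicted transcripts and 23.5% among CpG-rich starts. The members' peaks with the motif, 17 as reported, numbered 2 with no mismatch allowed, 22 with at most 2 mismatches, 14 within 50 bp of the summit and 16 with the window of 500 bp. With GENCODE M21 basic starts, an alternative chosen after seeing the data, 22 of 60 genes had a peak, Eef1aknmt not being listed there under that symbol, and the share of all genes was 13.2%. Leaving out the read-through gene, also chosen after seeing the data, gave 23 genes and 37.1%. No paired analysis was possible because a single peak list was analysed, and for the same reason no replicate could be left out. Depth is unknown, so weak sites may be missing.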
